A study of Mus musculus with 11 samples.

Results

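The 10 genes described here serve serine, glycine and folate-dependent carbon metabolism, and their signals were followed in cultured mouse CD4 T cells with and without retroviral FoxP3. The members were taken by name from the platform annotation: every probe set listed with exactly 1 gene symbol, that symbol being Gldc, Amt, Phgdh, Psat1, Psph, Shmt1, Shmt2, Mthfd1, Mthfd2 or Mthfd1l. This gave 22 probe sets of 9 genes, out of 34945 probe sets of 18193 genes that have 1 symbol and 45037 that were tested in all. Gldc, Psph and Mthfd1l have 1 probe set each, Psat1 and Mthfd2 have 2, Mthfd1 has 3, and Phgdh, Shmt1 and Shmt2 have 4. No probe set is listed for Amt alone, which was therefore not analysed here, and 2 further probe sets of Phgdh that are also listed for a second gene were left out.

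The cells were naive CD4 T cells taken from BALB/cA mice, without CD25 and with high CD45RB, from lymph nodes and spleen, and RNA of each sample was hybridized to 1 Affymetrix array. The groups were cells transduced with wild-type mouse FoxP3 in the MIGR1 retrovirus (WT, 3 arrays), with A384T FoxP3 in the same vector (A384T, 3 arrays), with R397W FoxP3 in the same vector (R397W, 2 arrays), and with MIGR1 alone (mock, 3 arrays). All groups had the same stimulation with 0.5 µg/ml anti-CD3e, 10 ng/ml IL-2 and irradiated T cell-depleted spleen cells, infection after 24 h, and sorting of GFP-high cells on day 7. FoxP3 was therefore driven by a retrovirus in cells chosen for a high level of the vector, and the labels do not tell whether replicate arrays stand for different cultures or mice. The p-values therefore rest on array-to-array spread that could be technical. The titles number the arrays within each group, and arrays of the same number deviated together from their group means, so calls from a fit blocked on array number are given beside those of the fit without it where they differ.

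The glycine cleavage system sits in mitochondria and takes glycine apart into carbon dioxide, ammonia and a methylene group that is handed to tetrahydrofolate. Gldc, glycine decarboxylase or P-protein, does the first step, and Amt (T-protein), Gcsh (H-protein) and Dld (L-protein) do the rest. Serine, made from a glycolytic intermediate by Phgdh, Psat1 and Psph, is the main source of such folate-bound carbon, released when serine hydroxymethyltransferases convert serine to glycine, Shmt1 in the cytosol and Shmt2 in mitochondria. Mthfd2 and Mthfd1l then carry the carbon to formate in mitochondria, and Mthfd1 uses formate in the cytosol for purine and thymidylate synthesis. Activated T cells are known to draw on this pathway for growth.

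Promoter sequences are shown for Gldc and Mthfd2, the members whose values differed most between the groups. They are from RefSeq (GRCm38.p6), run 5′ to 3′ on the gene's strand from 250 bases before the annotated start to 50 after it, and the capitals mark the 50 bases from the start onward. The Gldc window is chr19:30175392-30175691 on the minus strand, and the Mthfd2 window is chr6:83317555-83317854 on the minus strand.
Gldc: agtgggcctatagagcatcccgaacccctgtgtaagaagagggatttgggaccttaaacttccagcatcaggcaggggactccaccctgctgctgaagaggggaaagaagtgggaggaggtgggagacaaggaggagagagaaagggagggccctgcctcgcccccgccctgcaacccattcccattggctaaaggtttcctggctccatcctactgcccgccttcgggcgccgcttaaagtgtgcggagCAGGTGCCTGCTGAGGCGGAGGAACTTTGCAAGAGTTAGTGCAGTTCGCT
Mthfd2: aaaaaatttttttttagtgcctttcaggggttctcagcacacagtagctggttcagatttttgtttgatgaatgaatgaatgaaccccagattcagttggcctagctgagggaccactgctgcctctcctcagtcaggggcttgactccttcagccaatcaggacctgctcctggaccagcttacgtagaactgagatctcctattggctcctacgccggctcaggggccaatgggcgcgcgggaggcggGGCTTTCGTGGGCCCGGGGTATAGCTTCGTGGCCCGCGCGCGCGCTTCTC
The Gldc window holds 10 CpG dinucleotides and 59.0% G and C, and the Mthfd2 window 15 and 55.7%, against medians of 7 and 52.7% over the 32851 windows of the table. Both strands of each window were searched for GTAAACA, the forkhead core, for TGATGNAA, the amino acid response element bound by ATF4, and for CACGTG, the E-box. None of these motifs, as spelled here, is in the Gldc or Mthfd2 window, nor in the other 9 windows listed for the members. Variants of these spellings were not searched for, so sites with other letters may be present. Of all windows, 3.65% hold the first, 3.97% the second and 7.15% the third.

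Values below are the deposited log2 values, each centred on the mock median of its probe set. Groups can be compared at a probe set, but expression levels, and with them comparisons of level between genes, are lost. Precision is set by the few arrays: the standard error (SE) of a difference had a median of 0.139 between groups of 3 and of 0.155 with R397W. In bulk samples a change in the share of cells that express a gene and a change in RNA per cell cannot be told apart. Because levels are lost, the labelled cell type could not be checked by the presence of its markers, and only differences were read. Of the 7 measured genes of the T cell marker list, Cd2 was higher and Cd5 lower in WT over mock, and Cd2 was higher and Cd28 lower in A384T over mock. Under the block Cd4 was also lower in WT over mock (-0.40 ± 0.19, adjusted p = 0.467; 0.0186 under the block), and Cd5 in A384T over mock (-0.46 ± 0.10, adjusted p = 0.0521; 0.0266 under the block). Cd2 was lower in R397W than in WT (-0.61 ± 0.11, limma, adjusted p = 0.0228) and than in A384T (-0.60 ± 0.11, adjusted p = 0.027). Cd28 was higher in R397W than in A384T (1.24 ± 0.18, limma, adjusted p = 0.00743). The medians of the B cell, macrophage and dendritic cell, and CD8 and NK cell lists lay between -0.19 and 0.069 on every array. That of the erythroid and platelet list, with 4 probe sets, lay between -0.24 and 0.054. Among the genes of these other cell types, Adgre1, a macrophage surface receptor, was the 1 gene called without the block, lower in A384T than in mock (-1.13 ± 0.19, limma, adjusted p = 0.0131) and higher in R397W than in A384T (1.19 ± 0.21, adjusted p = 0.0241). With the block Itga2b, the platelet integrin chain, was called too, lower in WT over mock (-0.51 ± 0.13, adjusted p = 0.0793; 0.0261 under the block) and A384T over mock (-0.57 ± 0.13, adjusted p = 0.0547; 0.0154 under the block). Itga2b was higher in R397W over A384T (0.59 ± 0.14, adjusted p = 0.0946; 0.0475 under the block). The part of other cell types in the results was not tested.

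Gldc was high with WT and with A384T FoxP3 and stood near the mock value with R397W. Its probe set, 1416049_at, was at 4.17, 3.88 and 3.24 on the WT arrays, at 4.35, 3.20 and 3.05 on the A384T arrays, at 0.64 and -0.46 on the R397W arrays, and at 0.28, 0 and -0.21 on the mock arrays. The WT and A384T arrays overlapped each other and lay above every R397W and mock array, whereas the R397W arrays enclosed the mock arrays.

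**Figure D1:**
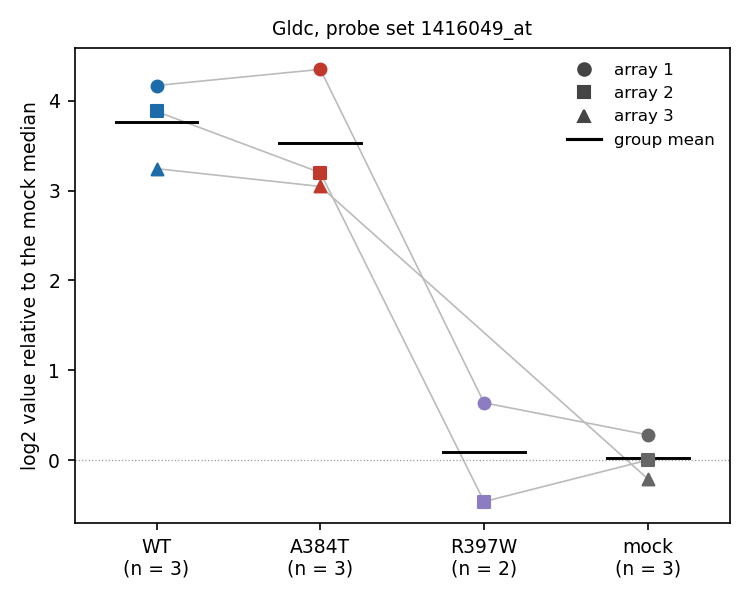
Gldc on every array. The vertical axis is the log2 value relative to the mock median, points are arrays, their shape gives the array number, grey lines join arrays of the same number, and black bars are group means. The WT arrays sit between 3.24 and 4.17 and the A384T arrays between 3.05 and 4.35, all above the R397W arrays (-0.46 and 0.64) and the mock arrays (-0.21 to 0.28).

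Group means of Gldc were 3.77 ± 0.47 for WT and 3.53 ± 0.71 for A384T (SD, n = 3 each), 0.088 ± 0.78 for R397W (SD, n = 2) and 0.024 ± 0.25 for mock (SD, n = 3). The comparison of WT with mock asked what FoxP3 by itself does in activated T cells. Gldc was 13.4-fold higher with WT FoxP3 than in mock cells (log2 difference 3.74 ± 0.39 SE, limma, adjusted p = 0.000696), with a 95% interval of 7.37-fold to 24.3-fold. It ranked 16 from the top among the 45037 probe sets ordered by their log2 difference. Gldc was 11.4-fold higher with A384T than in mock cells (3.51 ± 0.39, limma, adjusted p = 0.00112, 95% interval 6.27-fold to 20.7-fold), where it ranked 21. R397W and mock did not differ beyond the spread, at 0.064 ± 0.43 with a 95% interval of -0.90 to 1.03.

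The mutant forms were then set against WT FoxP3. A384T and WT cells differed in Gldc by -0.23 ± 0.39 (limma, adjusted p = 1.00), with an interval of -1.09 to 0.63, so a difference of up to about 1 log2 unit lies within the error. R397W cells had 12.8-fold less Gldc signal than WT cells (-3.68 ± 0.43, limma, adjusted p = 0.00228, interval -4.64 to -2.71). They had 10.9-fold less than A384T cells (-3.44 ± 0.43, limma, adjusted p = 0.00371, interval -4.41 to -2.48). This last call was lost with only these 2 groups in the fit (adjusted p = 0.0876 at the same difference). Gldc had the rank 15 from the bottom in R397W over WT and 19 from the bottom in R397W over A384T. The comparisons over mock share the mock arrays, and those with WT share the WT arrays, so their values stand side by side and are not independent of one another.

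The order of Gldc means was WT, A384T, R397W and mock, where WT and A384T did not differ beyond their spread, nor did R397W and mock, and the step between A384T and R397W was the one that passed the test. Within groups, the array numbered 1 was the highest of each group for Gldc, by 0.61 over the mean of the other WT arrays, 1.23 for A384T and 0.39 for mock, while the 2 R397W arrays were 0.64 and -0.46. Blocked on array number, the SE of WT over mock was 0.19 at the same difference. Without the 4 arrays numbered 1, WT over mock was 3.67 and A384T over mock 3.23. The differences of R397W were then -4.02 against WT and -3.58 against A384T, resting on R397W 2 alone.

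Gldc was the 1 member probe set of 22 called in WT over mock, where 2.66% of all probe sets were called, and the 1 called in A384T over mock, against 2.17% of all. Against the other forms it was again the 1 of 22 called, with 1.75% of all probe sets called between R397W and WT and 1.47% between R397W and A384T. In A384T over WT, 0 of 22 were called, against 0.102% of all probe sets (46). There 0 of 22 had an unadjusted p under 0.05, against 1845 of all 45037 probe sets. In R397W over mock limma called 0 of 22 members and 0% of all, with 0 members but 829 of all probe sets at an unadjusted p under 0.05, and a trend and robust prior also called 0 members. Blocked on array number, the member counts were 5 for WT against mock (7.63% of all probe sets called), 4 for A384T against mock (7.33%), 3 for R397W against WT (5.78%) and 4 for R397W against A384T (5.70%). R397W against mock had 0 (0%), as had A384T against WT (0.515%). The other 21 probe sets differed far less than Gldc, between -0.39 and 0.57 in WT over mock and between -0.51 and 0.82 in A384T over mock, with medians of 0.027 in both, against -0.013 and -0.0067 over all probe sets. In R397W over mock they lay between -0.23 and 0.24.

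**Figure D2:**
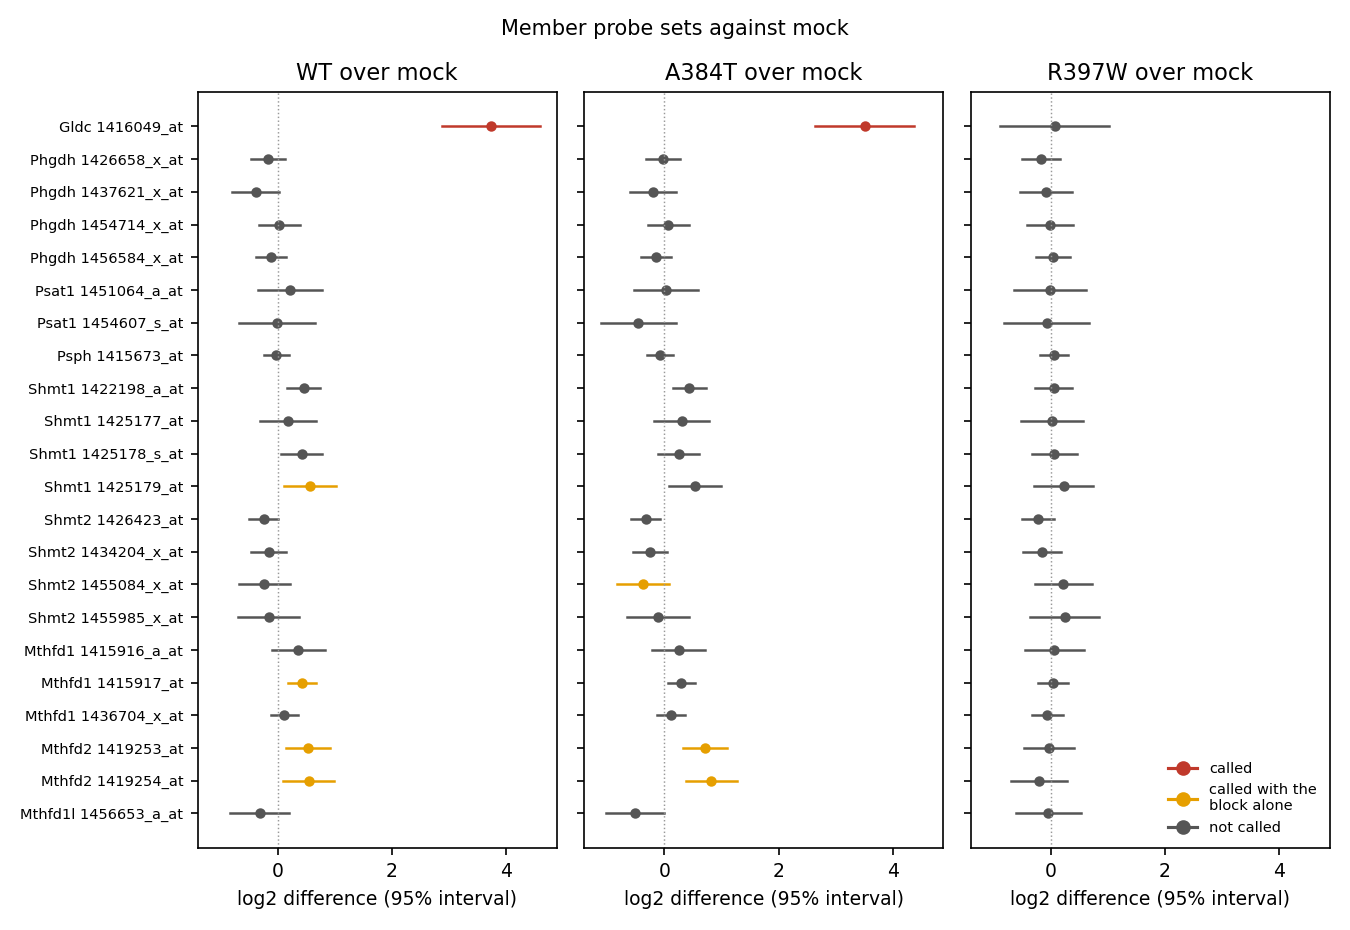
Log2 differences of the 22 member probe sets from mock, for WT, A384T and R397W. Points are limma estimates from the fit without the block and bars their 95% intervals; red marks probe sets called in that fit and orange those called only when blocked on array number. Gldc stands at 3.74 with WT, 3.51 with A384T and 0.064 with R397W, and the other probe sets lie between -0.51 and 0.82.

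Of the other subunits of glycine cleavage, Gcsh and Dld, 0 of 2 genes were called in any comparison. Gcsh was at 0.43 ± 0.24 in WT over mock (limma, adjusted p = 0.61) and 0.45 ± 0.24 in A384T over mock (adjusted p = 0.559). Dld also serves pyruvate dehydrogenase and related complexes. At its probe set with the larger differences it was at 0.33 ± 0.13 (adjusted p = 0.354) and 0.37 ± 0.13 (adjusted p = 0.275). The other Dld probe set had lower values in both comparisons. There R397W over mock was -0.054 ± 0.16 and R397W over WT 0.0037 ± 0.16, so WT and mock both lay near R397W. A384T over WT was 0.15 ± 0.14 at that probe set. The values of the first probe set therefore do not stand for the gene. The difference between Gldc and these subunits was not tested.

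Mthfd2, the dehydrogenase and cyclohydrolase of the mitochondrial folate pathway, had the largest values over mock after Gldc in A384T cells. Probe set 1419254_at was at 0.23, 0.42 and 0.31 on the WT arrays, at 0.51, 0.67 and 0.63 on the A384T arrays, at -0.64 and -0.20 on the R397W arrays, and at -0.73, 0 and 0.071 on the mock arrays. Probe set 1419253_at was at 0.70, 0.41 and 0.30 on the WT arrays, at 1.02, 0.44 and 0.48 on the A384T arrays, at 0.0021 and -0.18 on the R397W arrays, and at 0, 0.083 and -0.26 on the mock arrays. At both probe sets every WT and A384T array was above every R397W and mock array. The array numbered 1 was the highest of its group for 1419253_at in WT, A384T and R397W, and the lowest of every group for 1419254_at.

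For each Mthfd2 probe set alone, limma without the block made no call. In A384T over mock the differences were 0.71 ± 0.17 (adjusted p = 0.0774) and 0.82 ± 0.20 (adjusted p = 0.0728) for 1419253_at and 1419254_at. Blocked on array number, the adjusted p-values were 0.00456 and 0.00428. In WT over mock the differences were 0.53 ± 0.17 (adjusted p = 0.209; 0.0215 under the block) and 0.54 ± 0.20 (adjusted p = 0.29; 0.038 under the block). The second of these, of 1419254_at, was 0.28 without mock 1 (adjusted p = 0.532) and 0.33 without the arrays numbered 1 (adjusted p = 0.39). Averaging the probe sets of each gene gave Mthfd2 differences of 0.77 ± 0.11 in A384T over mock (1.70-fold, limma over 18193 genes, adjusted p = 0.00321) and 0.53 ± 0.11 in WT over mock (1.45-fold, adjusted p = 0.022). On the arrays numbered 1 the 2 probe sets deviated in opposite directions, which partly cancels in such an average. The part of this in the smaller SE was not tested. By the averages 2 of the 9 member genes were called in each comparison, Gldc and Mthfd2, against 4.15% of all genes in A384T over mock and 4.82% in WT over mock.

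Against the other forms of FoxP3, Mthfd2 was lower in R397W. With probe sets averaged, R397W was 1.57-fold lower than WT (-0.65 ± 0.13, limma, adjusted p = 0.0175) and 1.85-fold lower than A384T (-0.88 ± 0.13, adjusted p = 0.00381). In both, Gldc and Mthfd2 were the 2 of 9 genes called, against 3.25% and 2.85% of all genes. Single probe sets in R397W over A384T were at -0.74 ± 0.20 (adjusted p = 0.126) and -1.03 ± 0.22 (adjusted p = 0.0574), with the block 0.00549 and 0.0047. In R397W over WT the single probe sets were at -0.56 ± 0.20 (adjusted p = 0.297; 0.02 under the block) and -0.74 ± 0.22 (adjusted p = 0.189; 0.0284 under the block). Without mock 1, the array with the lowest value of 1419254_at, that probe set was called in R397W over A384T (adjusted p = 0.00887) and in R397W over WT (adjusted p = 0.0359), at unchanged differences. The same omission lowered its difference in A384T over mock to 0.57 (adjusted p = 0.111). A384T and WT differed by 0.23 ± 0.11 with probe sets averaged (adjusted p = 0.999, interval -0.016 to 0.48; 0 of 9 genes called, 0.203% of all), and R397W and mock by -0.12 ± 0.13 (interval -0.40 to 0.16; 0 of 9 called, 0% of all). Without the arrays numbered 1, A384T over mock was 0.56 for 1419253_at and 0.62 for 1419254_at, neither of them called.

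**Figure D3:**
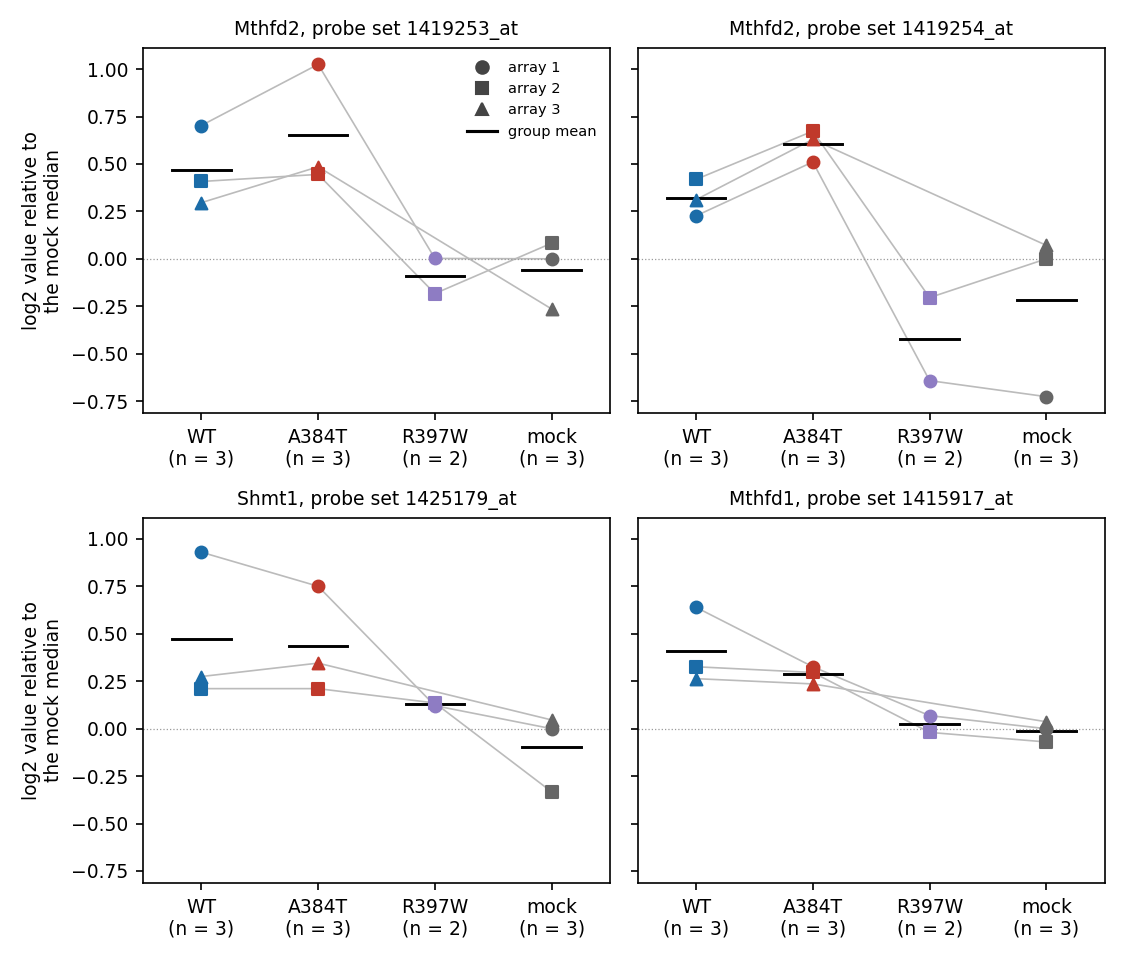
Values on every array for both Mthfd2 probe sets and for the probe sets of Shmt1 and Mthfd1 that were called with the block. The vertical axis is the log2 value relative to the mock median, point shapes give the array number, grey lines join arrays of the same number, and black bars are group means. For Mthfd2 every WT and A384T array lies above every R397W and mock array, and the array numbered 1 is the highest of the WT group in all panels but that of 1419254_at.

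Mthfd1l, which releases formate from the folate carrier in mitochondria, had lower means in WT and A384T than in mock and was not called. It was at -0.52, -0.72 and 0.055 on the WT arrays, at -0.94, -0.49 and -0.33 on the A384T arrays, at -0.35 and 0.11 on the R397W arrays, and at -0.33, 0 and 0.11 on the mock arrays. The groups overlapped, and A384T over mock was -0.51 ± 0.23 (limma, adjusted p = 0.433, interval -1.03 to 0.00031). In the fit on gene means, where Mthfd1l has the same 1 probe set, it was -0.51 ± 0.22 (limma, adjusted p = 0.313, interval -1.01 to -0.017).

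Shmt1 and Mthfd1, the cytosolic enzymes, had higher means with WT and A384T FoxP3 than in mock, with no call in the fit without the block. Averaged over its 4 probe sets, Shmt1 differed by 0.40 ± 0.15 in WT over mock (limma, adjusted p = 0.203) and 0.38 ± 0.15 in A384T over mock (adjusted p = 0.235). Its probe set 1425179_at was at 0.93, 0.21 and 0.27 on the WT arrays, at 0.75, 0.21 and 0.35 on the A384T arrays, at 0.12 and 0.14 on the R397W arrays, and at 0, -0.33 and 0.046 on the mock arrays. WT and mock arrays did not overlap there, and WT over mock was 0.57 ± 0.21 (adjusted p = 0.275; 0.0439 under the block), or 0.34 without WT 1 (adjusted p = 0.603).

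Mthfd1, a single protein with the dehydrogenase, cyclohydrolase and formate-using synthetase activities, averaged 0.30 ± 0.11 in WT over mock (adjusted p = 0.232) and 0.22 ± 0.11 in A384T over mock (adjusted p = 0.418). Its probe set 1415917_at was at 0.64, 0.33 and 0.26 on the WT arrays, at 0.33, 0.30 and 0.24 on the A384T arrays, at 0.069 and -0.019 on the R397W arrays, and at 0, -0.070 and 0.037 on the mock arrays. All WT and A384T arrays were above all others, and WT over mock was 0.42 ± 0.11 (adjusted p = 0.0839; 0.0304 under the block). At 1415916_a_at and 1436704_x_at, WT over mock was not called with or without the block.

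Shmt2, the mitochondrial hydroxymethyltransferase, had values of the opposite sign. Averaged over 4 probe sets it was at -0.20 ± 0.14 in WT over mock (adjusted p = 0.602) and -0.27 ± 0.14 in A384T over mock (adjusted p = 0.43). Its probe set 1455084_x_at was at 0.059, -0.24 and -0.49 on the WT arrays, at 0.00003, -0.41 and -0.66 on the A384T arrays, at 0.41 and 0.060 on the R397W arrays, and at 0.25, 0 and -0.20 on the mock arrays. A384T and mock arrays overlapped, and the array numbered 1 was the highest of every group. The difference of A384T from mock was -0.37 ± 0.20 (adjusted p = 0.562), and when blocked on array number it was called (adjusted p = 0.0296), as was R397W over A384T (0.46, adjusted p = 0.0263). Without A384T 3, and without the block, A384T over mock was -0.22 (adjusted p = 0.804).

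The enzymes of serine synthesis were not called in any comparison, with or without the block. Phgdh, which commits 3-phosphoglycerate to serine, averaged -0.17 ± 0.11 in WT over mock (adjusted p = 0.58) and -0.075 ± 0.11 in A384T over mock (adjusted p = 0.851). Psph, the phosphatase of the last step, was at -0.026 ± 0.093 and -0.075 ± 0.093 in these comparisons. Psat1, the aminotransferase between them, averaged 0.10 ± 0.26 (95% interval -0.47 to 0.67) and -0.21 ± 0.26 (interval -0.79 to 0.36). The wide interval of Psat1 goes with a spread inside groups: 1454607_s_at was at 0.58, -0.73 and 0.014 on the WT arrays and at -0.13, -0.39 and -0.94 on the A384T arrays, against 0.000059 and -0.22 on the R397W arrays and 0, -0.20 and 0.097 on the mock arrays. WT 1 was thus high, and WT 2 and A384T 3 low.

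**Figure D4:**
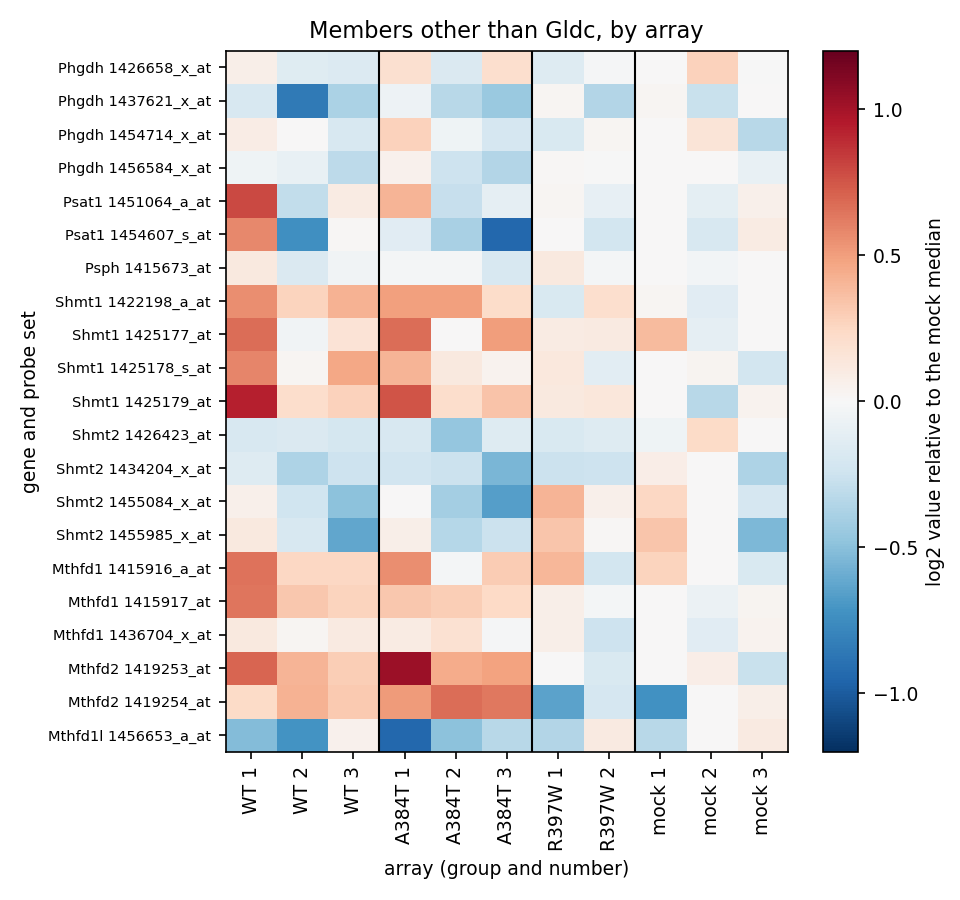
Values of the 21 member probe sets other than Gldc on each array, as log2 values relative to the mock median; red is above and blue below it, the colour scale ends at 1.2 either way, and black lines part the groups. The Mthfd2 rows are red across WT and A384T, the Shmt1 rows are highest on WT 1 or A384T 1, and the Phgdh, Psat1, Psph, Shmt2 and Mthfd1l rows hold both colours.

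Differences between arrays of 1 group were seen at most member probe sets. Of the 22 member probe sets, 19 were higher on WT 1 than the mean of the other WT arrays, as were 20 on A384T 1, 13 on R397W 1 and 18 on mock 1, with median excesses of 0.34, 0.34, 0.10 and 0.091. The same share over all probe sets was not counted, so these counts cannot be read as a trait of the members. Over all probe sets, deviations of the arrays numbered 1 correlated between groups, with r from 0.575 (R397W and A384T) to 0.718 (A384T and WT). Genes of DNA replication, which need purines and thymidylate, differed in the same arrays. The median of their 49 probe sets was 0.72, 0.14 and 0.12 on the WT arrays, 0.61, 0.30 and 0.083 on the A384T arrays, 0.095 and 0.025 on the R397W arrays, and 0 on each mock array. Centring on the mock median holds list medians near 0 on the mock arrays, so their spread cannot be read from these values. Of the 22 genes on that list, 1 was called in WT over mock and in A384T over mock, Mcm5, a subunit of the replicative helicase (1.95 ± 0.42, adjusted p = 0.0378, and at another of its probe sets 1.60 ± 0.33, adjusted p = 0.0347), against 8 and 6 with the block, all higher. In R397W over WT and over A384T, 0 of the 22 were called without the block, against 8 and 4 with it, all lower. Over all 18193 genes, 11.8% had at least 1 probe set called with the block between WT and mock, 11.4% between A384T and mock, 9.03% between R397W and WT and 9.12% between R397W and A384T. The part of replication in the values of Shmt1, Mthfd1 and Mthfd2 was not tested.

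The rest of the pathway was read from lists of its genes, a gene counting as called when at least 1 of its probe sets was. By that rule 4.48% of all 18193 genes were called between WT and mock, 3.72% between A384T and mock, 3.02% between R397W and WT and 2.64% between R397W and A384T. Between A384T and WT 0.203% were called, and 0.907% with the block, and between R397W and mock 0% with or without it. Of 15 measured genes of folate uptake and the folate cycle, 1 was higher in WT over mock and 2 in A384T over mock, and 0 were lower; the medians over the list's 28 probe sets were -0.053 and -0.059. With the block 2 were higher and 1 lower in WT over mock, and 2 higher and 2 lower in A384T over mock, the lower ones being Mtfmt, which formylates the mitochondrial initiator tRNA, in both and Slc19a1, the reduced folate carrier, in A384T over mock. Mtfmt was at -0.45 ± 0.13 in WT over mock (adjusted p = 0.12; 0.0338 under the block), and Slc19a1 at -0.40 ± 0.14 in A384T over mock (at a probe set of the 2 called with the block, adjusted p = 0.284; 0.0261 under the block). The largest was Izumo1r, a folate receptor family member that is known not to bind folate, at 3.57 ± 0.16 (adjusted p = 1.19e-05) and 3.32 ± 0.16 (adjusted p = 1.67e-05). Ggh, the hydrolase that trims the glutamate tail of folates, was called in A384T over mock (0.92 ± 0.17, adjusted p = 0.0227), and in WT over mock with the block alone (0.67 ± 0.17, adjusted p = 0.0826; 0.0349 under the block). Of 12 measured genes of the methionine cycle and transsulfuration, 1 was higher in each of these comparisons, Ahcyl2, a relative of the enzyme that splits S-adenosylhomocysteine (3.61-fold, adjusted p = 8.57e-05, and 2.83-fold, adjusted p = 0.000299). Izumo1r and Ahcyl2 were lower in R397W than in WT (-3.64 ± 0.18 and -1.74 ± 0.15, each called) and than in A384T (-3.39 ± 0.18 and -1.39 ± 0.15, each called), as was Gldc.

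Genes that use or import serine, glycine and folate-bound carbon were read in the same way. Of 12 measured genes of purine synthesis, 0 were higher and 1 was lower in WT over mock and in A384T over mock, Adssl1, the muscle-type adenylosuccinate synthase (-1.04 ± 0.20, adjusted p = 0.02, and -1.81 ± 0.20, adjusted p = 0.000948), at list medians of 0.15 and 0.020. With the block 1 was higher in WT over mock, Pfas, an enzyme of the purine ring pathway (0.58 ± 0.18, adjusted p = 0.187; 0.00513 under the block). In A384T over mock 2 were higher with the block, Pfas and the GMP synthase gene Gmps, while Adssl1 remained the 1 lower in both. Adssl1 was higher in R397W than in WT (1.38 ± 0.22, limma, adjusted p = 0.0111) and than in A384T (2.16 ± 0.22, adjusted p = 0.00115). Of 10 genes of serine and glycine transport, 0 were higher and 1 was lower, Slc1a5, the neutral amino acid carrier ASCT2 (-0.43 ± 0.095, adjusted p = 0.0423, and -0.72 ± 0.095, adjusted p = 0.00345). Slc1a5 was higher in R397W than in A384T (0.74 ± 0.11, adjusted p = 0.00743), and than in WT with the block alone (0.46 ± 0.11, adjusted p = 0.0722; 0.0437 under the block). In the list of other users of glycine and serine, 0 of 11 genes were called in WT over mock and in A384T over mock without the block, and 1 was higher in each with it. This was Sptlc1, a subunit of serine palmitoyltransferase, at 0.58 ± 0.17 in WT over mock (adjusted p = 0.128; 0.0291 under the block) and 0.49 ± 0.16 in A384T over mock (at another probe set, adjusted p = 0.22; 0.0145 under the block).

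ATF4 is the transcription factor of the amino acid response and is known to act on several genes of serine synthesis and mitochondrial folate metabolism. Atf4 itself was lower in WT over mock (-0.56 ± 0.12, adjusted p = 0.0344) and in A384T over mock (-0.65 ± 0.12, adjusted p = 0.0179). Of 19 measured genes of ATF4 and its targets, 0 were higher and 2 lower in WT over mock, the second being Stc2, a secreted glycoprotein (-0.76 ± 0.16, adjusted p = 0.0337), and 0 were higher and 1 lower in A384T over mock. Blocked on array number, 3 were higher and 4 lower in WT over mock, and 3 higher and 2 lower in A384T over mock. The shares of all genes called with the block in either direction were 11.8% and 11.4%. For R397W, 0 were called without the block. With it 2 were higher and 3 lower than in WT, and 3 higher and 2 lower than in A384T, against 9.03% and 9.12% of all genes. Sesn2 was lower than in WT (-1.19 ± 0.32, limma, adjusted p = 0.135; 0.00976 under the block). Ddit4 was higher than in A384T (1.06 ± 0.29, adjusted p = 0.149; 0.0056 under the block). Cebpb was lower than in WT (-1.06 ± 0.57) and than in A384T (-0.99 ± 0.57), both called with the block alone. The list's medians in WT over mock and A384T over mock, 0.0077 and -0.022, stood against -0.013 and -0.0067 over all probe sets. In R397W over mock, limma called 0 genes of any of these lists.

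Probe sets of other genes with profiles most like that of Gldc were sought among the 290 with 1 symbol and at least 50% of its standard deviation over the 11 arrays. The highest Pearson correlations with Gldc over the 11 arrays were those of Gpr83, a receptor typical of regulatory T cells (r = 0.993), Gnaq, a G protein subunit (0.991), Socs2, a cytokine signalling inhibitor (0.990), Il2ra, the IL-2 receptor alpha chain (0.987), and Slc12a5, a potassium and chloride carrier (0.986). The 11 arrays fall into 2 clusters for Gldc, WT with A384T and R397W with mock, so an r near 1 describes that shared step. After the mean of each array number was subtracted, with 208 such probe sets, the most alike were Izumo1r (0.997), Gpr83 (0.997), Socs3 (0.996), Gnaq (0.996) and another Gpr83 probe set (0.995). Group means of Gnaq, for example, were 2.28 for WT, 2.33 for A384T, -0.096 for R397W and 0.028 for mock.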

How the data were processed

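RNA of the 11 samples was measured on Affymetrix arrays. The deposited table holds log2 values; RMA (background correction, quantile normalization, summary of probes) is the tool named in the submitters' processing notes, without a version. The median of the 3 mock arrays is exactly 0 at all 45037 tested probe sets, so values were centred on mock; this step and the logarithm's base are not given in the sources used here, and base 2 was taken, as RMA gives. No filter on low levels is possible with centred values. The median of an array lay between -0.016 and 0.0019.

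Without the 64 control probe sets, all others were fitted with limma 3.58.1 (R 4.3.3), 1 mean per group over all 11 arrays (7 residual degrees of freedom), and eBayes gave the 6 contrasts. A probe set was called below an adjusted p of 0.05, by Benjamini-Hochberg across the whole contrast. The fit was also run on simulated data with independent noise on each array and known changes in WT alone. Those data had no shared deviation of same-numbered arrays, so the run cannot judge p-values where arrays deviate together. Tables and figures used Python 3.11.15, pandas 2.3.3 and matplotlib 3.10.9. Members and lists were chosen with earlier results of these data known. Values on every array are given for Gldc and for member probe sets called with or without the block. From each list, up to 4 called genes of the largest difference are named. Where no gene of a list was called with or without the block, genes are named for the glycine cleavage subunits alone. Those list genes called with the block alone that are named were chosen after their values were seen.

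The array numbers come from the sample titles, which do not say what they mark. Deviations from the group means of same-numbered arrays correlated over probe sets in all 15 pairs, with r from 0.107 to 0.718 (the R397W comparisons have 2 pairs each). The main fit does not use these numbers, so its SEs and p-values take no account of a pairing. A fit blocked on the array number was run beside it. Alternatives were the array number as a block, a trend and robust prior, only the 2 groups compared, each array minus its median, 1 probe set or the mean per gene, the more variable 22519 probe sets, each array left out, and the arrays numbered 1 left out.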

Additional observations from a re-analysis of the deposited data

Results flagged for a closer look

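The effect of FoxP3 on Gldc over the same mock arrays differed between its forms. Mock cancels in this difference, so it is the contrast between the forms already given above and no further test. R397W minus WT was -3.68 (limma, adjusted p = 0.00228) and R397W minus A384T was -3.44 (limma, adjusted p = 0.00371), in each case with both R397W arrays below all 3 arrays of the other form. The call against A384T was lost with only these 2 groups in the fit (limma, adjusted p = 0.0876). The reason for the difference was not tested.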

How the results depend on the processing

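Gldc kept its direction and its call under all 19 alternative fits comparing WT with mock (3.54 to 4.0, adjusted p 1.9e-06 to 0.00543), A384T with mock (3.10 to 3.75, adjusted p 3.56e-06 to 0.00771) and R397W with WT (-4.23 to -3.13, adjusted p 6.43e-06 to 0.0326). In R397W over A384T (-3.99 to -2.89) the call held in 18 of 19 fits, and with only the 2 groups 0 members were called (adjusted p = 0.0876); that fit has fewer arrays. The number of member probe sets called was 1 in each of these comparisons. With the replicate block it was 5 for WT and 4 for A384T against mock, and for R397W it was 3 against WT and 4 against A384T. At an unadjusted p under 0.05 it was 8, 7, 5 and 5 in the same order. Of all 45037 probe sets, 5081, 5204, 4466 and 4599 had such a p. With the mean of a gene's probe sets, 2 genes were called in each, Gldc and Mthfd2. In R397W over A384T the count was 2 with 1 probe set per gene and 2 with the less variable probe sets left out, the second being Mthfd2 in both. Leaving out 1 array gave 1 to 2 for R397W against WT and 1 to 2 for R397W against A384T, the higher count without mock 1. No alternative called a member in A384T over WT or R397W over mock, and no called difference changed sign. The cause of these changes was not tested. R397W was a lone array in the fits without R397W 1, without R397W 2 and without the arrays numbered 1. Lone arrays left in a group were assumed to vary like the other groups. Signal over background cannot be read from centred values.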
